A study of Mus musculus with 2 samples.

Results

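The regions described here are the H3K9me3 peaks that lie next to the centromere of the mouse autosomes. H3K9me3 is histone H3 trimethylated at lysine 9, and ChIP-seq recovers DNA bound to it with an antibody and sequences that DNA. The cells were E14TG2a.4, a male mouse embryonic stem cell line of strain 129/Ola and embryonic age 3.5 day, untreated as far as the labels say. There were 2 biological replicates, separate biosamples that share 1 donor, and they formed the only group; a control library was not used here. Members were the peaks of the authors' replicated mm10 list on chromosomes 1 to 19 that start at or after 3 Mb and end at or before 8 Mb. There were 6898 of them among 123489 peaks in the whole list. They made up 5.80% of the autosomal peaks in 3.95% of the autosomal span. The data were peak lists with no read counts, so the depth of each replicate is unknown, and with 1 group no test between groups could be made. Values below are given for each replicate's own list beside the replicated list, and "rest" means the same chromosome from 8 Mb to its last replicated peak.

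The centromere of a mouse chromosome sits close to one end, so each autosome has a single long arm. Around the centromere lie long arrays of satellite DNA that the assembly leaves out. The first 3 Mb of chromosomes 1 to 19 are a block of unsequenced bases. Whether unsequenced bases run on past 3 Mb in mm10 was not checked. Pericentromeric satellites are a known site of H3K9me3, which is laid down there by the SUV39H methyltransferases and bound by HP1 proteins. The satellite arrays themselves were not analysed here.

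The sequence under the strongest regions is shown first, because most of it recurs many times in the genome. Sequence was given for mm9, so these regions come from the mm9 lists, as bases covered in both replicates, called shared regions. The strongest shared region of each window was ranked for 18 of the 19 chromosomes, and for the first 6 the 240 bases around the region's centre are printed 5′ to 3′ on the plus strand. Capitals mark bases inside a 16-mer found at least 50 times in mm9 on either strand. The stretches are chr10:5884181-5884420, chr7:3719081-3719320, chr8:7683881-7684120, chr4:7761381-7761620, chr1:7987281-7987520 and chr11:6433581-6433820.
Chromosome 10: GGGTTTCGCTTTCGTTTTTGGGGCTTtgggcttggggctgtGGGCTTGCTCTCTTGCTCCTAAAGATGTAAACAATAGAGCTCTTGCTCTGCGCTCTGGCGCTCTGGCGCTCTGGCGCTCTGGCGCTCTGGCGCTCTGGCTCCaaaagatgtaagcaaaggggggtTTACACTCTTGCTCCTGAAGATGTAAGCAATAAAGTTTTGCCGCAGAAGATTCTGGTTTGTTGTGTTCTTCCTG
Chromosome 7: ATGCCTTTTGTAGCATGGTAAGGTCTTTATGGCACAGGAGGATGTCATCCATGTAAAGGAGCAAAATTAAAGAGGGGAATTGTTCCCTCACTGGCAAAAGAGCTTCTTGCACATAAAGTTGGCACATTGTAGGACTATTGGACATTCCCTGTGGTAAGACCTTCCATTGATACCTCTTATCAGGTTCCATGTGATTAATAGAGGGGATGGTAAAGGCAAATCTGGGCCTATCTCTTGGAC
Chromosome 8: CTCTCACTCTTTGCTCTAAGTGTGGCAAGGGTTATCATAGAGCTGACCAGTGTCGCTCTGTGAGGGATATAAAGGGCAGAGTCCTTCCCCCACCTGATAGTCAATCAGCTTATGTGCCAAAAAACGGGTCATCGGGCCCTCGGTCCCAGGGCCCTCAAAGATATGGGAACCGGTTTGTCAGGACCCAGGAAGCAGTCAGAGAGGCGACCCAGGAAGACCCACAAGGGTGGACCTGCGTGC
Chromosome 4: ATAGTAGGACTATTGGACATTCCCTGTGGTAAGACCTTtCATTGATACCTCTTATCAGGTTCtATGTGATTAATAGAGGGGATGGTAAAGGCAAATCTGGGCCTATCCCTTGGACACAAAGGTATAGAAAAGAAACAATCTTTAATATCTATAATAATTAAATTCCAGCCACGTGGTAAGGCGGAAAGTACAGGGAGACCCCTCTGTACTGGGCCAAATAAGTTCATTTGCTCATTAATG
Chromosome 1: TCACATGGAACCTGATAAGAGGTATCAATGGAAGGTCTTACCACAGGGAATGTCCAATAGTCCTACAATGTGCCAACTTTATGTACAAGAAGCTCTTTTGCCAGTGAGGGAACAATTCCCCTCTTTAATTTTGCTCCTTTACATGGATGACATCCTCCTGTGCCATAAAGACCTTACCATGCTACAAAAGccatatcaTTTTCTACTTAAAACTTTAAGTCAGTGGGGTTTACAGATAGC
Chromosome 11: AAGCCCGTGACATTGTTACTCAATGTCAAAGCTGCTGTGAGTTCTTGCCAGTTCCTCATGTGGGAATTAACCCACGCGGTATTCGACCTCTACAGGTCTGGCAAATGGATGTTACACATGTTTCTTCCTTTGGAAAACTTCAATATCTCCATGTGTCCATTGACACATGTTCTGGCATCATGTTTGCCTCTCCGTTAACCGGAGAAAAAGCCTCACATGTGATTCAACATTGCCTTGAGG
Between 202 and 240 of the 240 bases were in capitals. The chromosome 7 stretch shared an exact run of 105 bases with the chromosome 1 stretch on the opposite strand and one of 44 bases with the chromosome 4 stretch on the same strand. The chromosome 4 and chromosome 1 stretches shared a run of 35 bases on opposite strands. The stretches from chromosomes 10, 8 and 11 shared no run longer than 10 bases with any other. In GENCODE M1 the chromosome 7 stretch lay in an intron of Pira5, a paired immunoglobulin-like receptor gene on the minus strand, and the other 5 lay outside genes.

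Most of the whole regions held little unique sequence. The chromosome 7 region was 7200 bp wide, with a fold enrichment, the authors' linear value per region, of 14.6 ± 4.29 (SD, n = 2). In it 97.6% of bases began a high-copy 16-mer, and 2.36% of sampled 32-mers were unique in mm9. The regions on chromosomes 8, 4, 1 and 11 had fold enrichments of 13.8 ± 3.35, 13.4 ± 3.78, 12.6 ± 3.34 and 12.5 ± 3.39 (SD, n = 2). Their unique share was between 2.05% and 5%. The chromosome 10 region differed in size and composition. It was 600 bp wide, with a fold enrichment of 16.8 ± 1.89 (SD, n = 2), a unique share of 46.7% and 35.0 CpG per kb.

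H3K9me3 peaks covered more of the sequence next to the centromere than of the rest of the chromosome on 14 of 19 autosomes, in the replicated list and in each replicate's own list. Over the 19 windows together, replicated peaks covered 5.88% of bases, against 3.68% of the rest, a ratio of 1.60. The covered share in the window was 4.04% in replicate 1 and 6.54% in replicate 2, against 2.78% and 3.94% in the rest. The ratio was therefore 1.45 in replicate 1 and 1.66 in replicate 2, or 1.55 ± 0.145 (SD, n = 2). On all 19 chromosomes both replicates fell on the same side of 1. Without any 1 chromosome the pooled ratio stayed between 1.51 and 1.68.

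Chromosomes 9, 4, 3, 18, 1 and 13 had the highest ratios, and on each of these the window next to the centromere was the most covered 5 Mb window of the chromosome. On chromosome 9 the window was covered over 7.92% in replicate 1 and 13.3% in replicate 2, against 2.90% and 4.10% in the rest. The replicated list gave 11.9% against 3.82%, a ratio of 3.11. The ratio was 2.97 on chromosome 4, 2.68 on chromosome 3, 2.48 on chromosome 18, 2.21 on chromosome 1 and 2.16 on chromosome 13. On none of the 6 did the window overlap the rest of its chromosome in either replicate, since the lowest window value, 5.69% in replicate 1 on chromosome 18, lay above the highest rest value, 4.46% in replicate 2 on chromosome 13. With the window ended at 5 Mb, the ratio of chromosome 1 was 1.48. Chromosome 11, at 1.89, and chromosome 5, at 1.85, followed, and their windows ranked 2 of 23 and 3 of 29. The ratio of chromosome 11 depended on where the window ended. With an end at 5 Mb in place of 8 Mb it was 0.744, and that of chromosome 5 was 1.49.

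A middle set of chromosomes had a modest excess. Chromosomes 8, 6, 15, 7, 10 and 2 had ratios of 1.48, 1.37, 1.35, 1.33, 1.33 and 1.24. Replicate 1 gave ratios from 1.19 on chromosome 10 to 1.35 on chromosome 8, and replicate 2 from 1.25 on chromosome 2 to 1.56 on chromosome 8. All of these windows ranked between 4 and 7 on their chromosome. With the window ended at 5 Mb, the ratio of chromosome 7 fell below 1, to 0.944, and that of chromosome 8 was 2.38. With mm9 regions these chromosomes had 2.13 and 2.30.

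Chromosomes 16, 12, 19, 17 and 14 had less of the mark next to the centromere than further along. Their ratios were 0.808, 0.781, 0.674, 0.511 and 0.0794. On chromosome 17 the window was covered over 1.94% in replicate 1 and 2.67% in replicate 2, against 3.66% and 4.98% in the rest, and it ranked last of 18 windows. On chromosome 14 the window was covered over 0.235% in replicate 1 and 0.370% in replicate 2, against 2.73% and 3.98%, and it ranked last of 24. These 5 chromosomes had the lowest coverage of the 19 windows, from 0.290% on chromosome 14 to 2.81% on chromosome 16 in the replicated list. Other window ends moved chromosomes 16 and 19 above 1: chromosome 16 had 1.44 with an end at 5 Mb and 1.11 at 13 Mb, and chromosome 19 had 1.11 at 13 Mb. With the end at 13 Mb, chromosome 17 had 0.841 and chromosome 14 had 0.633.

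**Figure D1:**
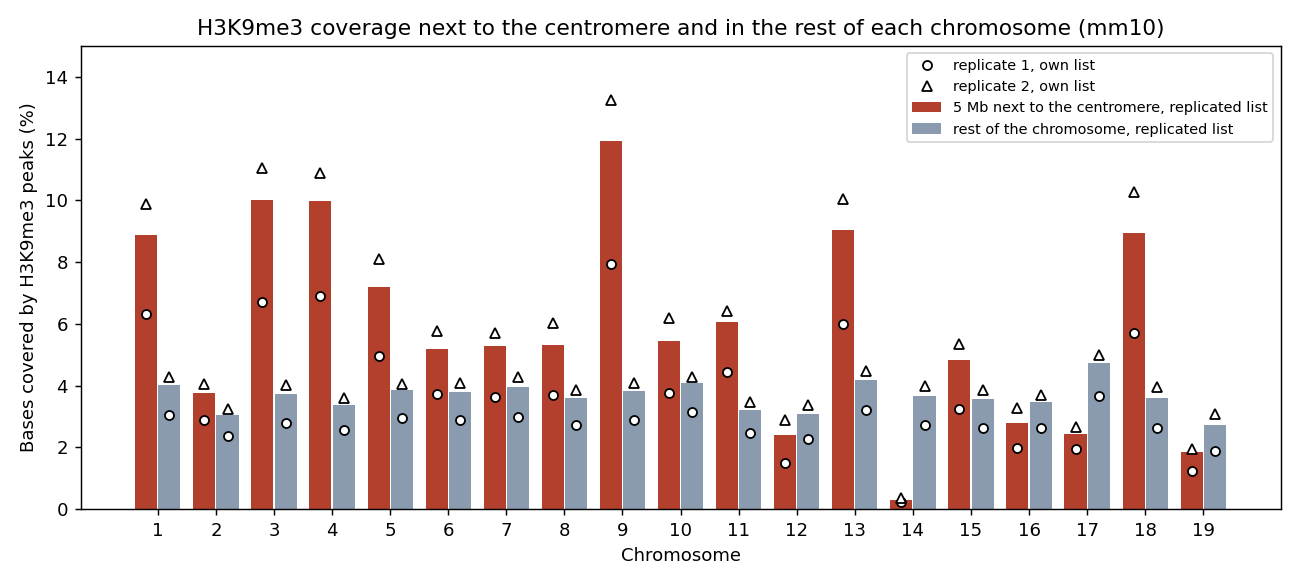
Percent of bases covered by H3K9me3 peaks (vertical axis) in the 5 Mb next to the centromere (red bars) and in the rest (grey bars) of each autosome (horizontal axis), mm10; bars are the authors' replicated list, circles replicate 1 and triangles replicate 2. The red bar is the higher of the pair on 14 of 19 chromosomes, with chromosome 9 highest at 11.9% and chromosome 14 lowest at 0.290%.

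Windows next to the centromere were then set beside all others. When all 472 non-overlapping 5 Mb windows of the 19 autosomes were compared with the rest of their own chromosome in the same way, 9.96% were covered at least 1.5 times as much as the rest. Of the 19 windows next to the centromere 8 were, which is 42.1%, and of the 453 other windows 39 were. At the low end 18.4% of all windows were covered at most 1/1.5 as much as the rest, and 2 of the 19, those of chromosomes 14 and 17, were. The median ratio was 1.37 for the windows next to the centromere and 0.930 for all windows. Windows of a chromosome are not replicates, so this is a description with no test.

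**Figure D2:**
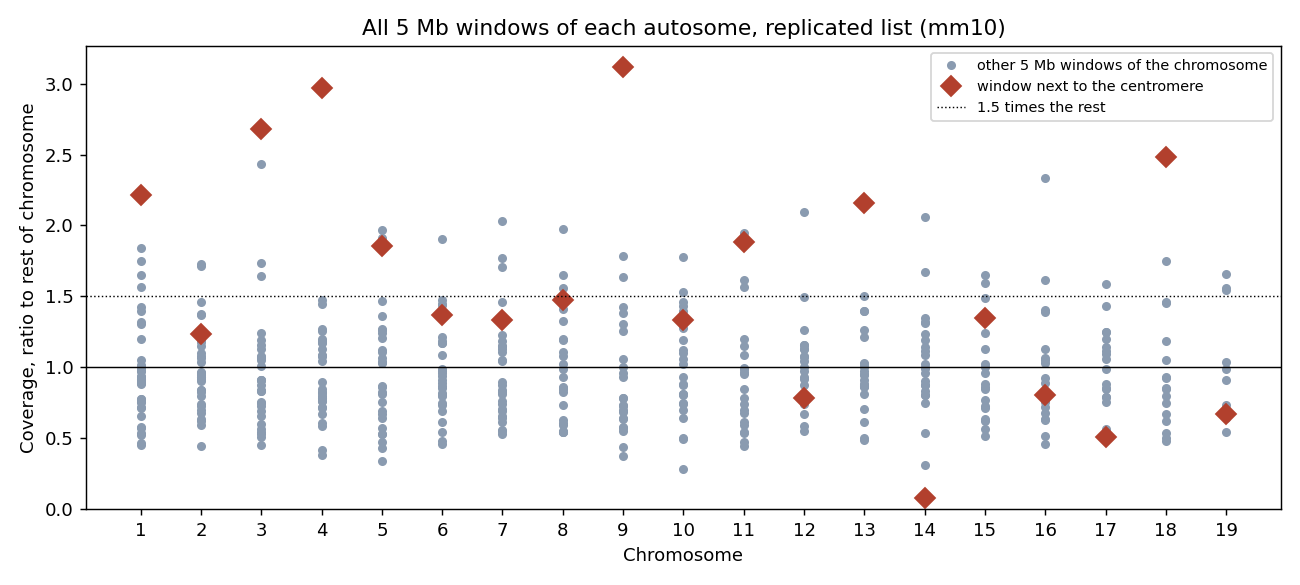
Coverage of each 5 Mb window divided by that of the rest of its chromosome (vertical axis) for the 19 autosomes (horizontal axis), replicated list, mm10; red diamonds are the windows next to the centromere, grey points all others, and the dotted line marks 1.5. Diamonds lie above all grey points on chromosomes 1, 3, 4, 9, 13 and 18 and below all of them on chromosomes 14 and 17.

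The excess did not end at 8 Mb. Averaged over the 19 chromosomes, replicated peaks covered 5.88% of the window from 3 to 8 Mb, 4.80% from 8 to 13 Mb, 4.27% from 13 to 18 Mb and 4.80% from 18 to 23 Mb. The average was 3.69% from 23 to 28 Mb, 3.37% from 28 to 33 Mb and 4.41% from 33 to 38 Mb. Of the windows from 18 to 23 Mb, 6 of 19 were covered at least 1.5 times as much as the rest, which is 31.6%, beside the 9.96% of all windows. Mean coverage was thus highest in the window next to the centromere, with no steady decline beyond it. The median ratio to the rest of the chromosome did not peak there. It was 1.37 from 3 to 8 Mb and 1.40 from 8 to 13 Mb. Within the 5 Mb, the mean over chromosomes was highest in the first 1 Mb, at 4.55% in replicate 1 and 7.31% in replicate 2, and 6.65% in the replicated list. The remaining 4 bins of 1 Mb had 5.72%, 5.18%, 6.06% and 5.77% in the replicated list.

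Chromosomes differed in where within the window the peaks lay. Chromosome 3 was densest in its first 1 Mb, with 17.6% covered, as were chromosome 13, at 15.9%, and chromosome 18, at 12.3%. Chromosome 4 was densest in the third bin, at 15.5%, chromosome 9 in the fourth, at 16.1%, and chromosome 1 in the fifth, at 14.9%. On chromosome 11 the first 3 bins had 3.16%, 1.82% and 3.12% and the last 2 had 10.2% and 12.1%. On 17 of 19 chromosomes the first replicated peak started within 150 kb of 3 Mb. The median distance was 50.2 kb and the nearest, on chromosome 3, was 1.23 kb. The exceptions were chromosome 16, at 232 kb, and chromosome 14, at 2589 kb. Most autosomal sequence has a peak this near: of all 100 kb windows of chromosomes 1 to 19, 15.1% held none. The count of 17 therefore does not set this edge apart.

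**Figure D3:**
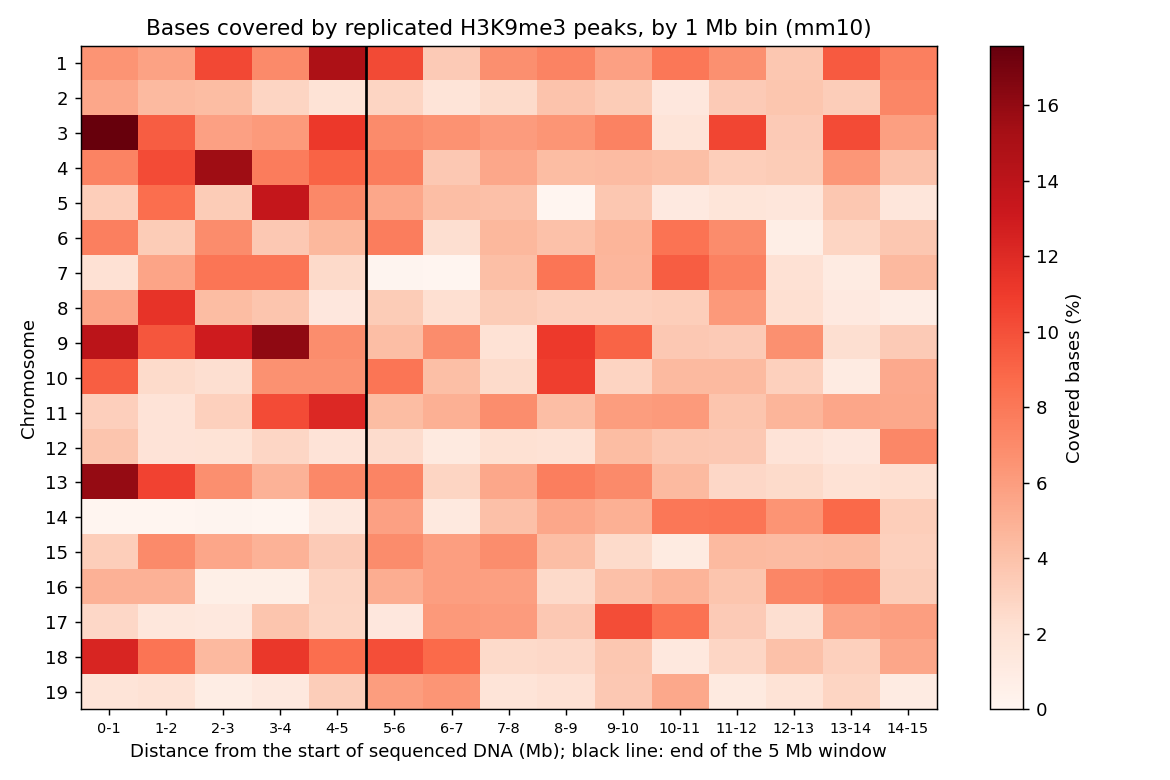
Percent of bases covered by replicated H3K9me3 peaks (colour) in bins of 1 Mb for each autosome (vertical axis), mm10. The horizontal axis is the distance from the 3 Mb position, and the black line marks the end of the 5 Mb window. Chromosome 3 has the darkest bin, at 17.6%, and the first 4 bins of chromosome 14 are nearly empty.

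The peaks next to the centromere had somewhat higher medians of fold enrichment and width than other autosomal peaks. Their median fold enrichment in the replicated list was 4.502 (quartiles 3.60 and 6.54), against 4.20 (3.42 and 5.85) in the rest. The window's median was the higher on 17 chromosomes, and on chromosome 17 both medians were 4.20. The exception was chromosome 19, at 4.13 against 4.20. At the members' positions the strongest overlapping peak had a median fold enrichment of 3.90 in replicate 1 and 5.40 in replicate 2, against 3.89 and 4.69 in the rest. Of the members 63.7% had a fold enrichment of at least 4, beside 56.6% of all autosomal peaks. The median width was 560 bp, against 530 bp, and 6.42% were at least 2 kb wide, beside 5.24%. Peaks lay closer together, with a median distance from start to start of 2128 bp, against 4204.5 bp in the rest.

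The share of peaks supported by both replicates was like that of the whole list. Of the members 5410, or 78.4% (95% exact Clopper-Pearson interval 77.4 to 79.4, counting error only), were overlapped by at least 1 bp by peaks of both replicates. Over all replicated peaks this share was 78.9%. Replicate 2 alone overlapped 1344 members, or 19.5%, against 17.0% in the rest. Replicate 1 alone overlapped 122, or 1.77%, against 3.40%. Neither overlapped 22, or 0.319%, against 0.531%. Where both overlapped, replicate 2 had the higher fold enrichment at 86.8%, against 79.6% in the rest. By chromosome, the share overlapped by both ranged from 72.1% on chromosome 12 to 82.9% on chromosome 1. The edge of the window was crossed by 2 replicated peaks, which were not members. The one on chromosome 3 was 494 bp wide with a fold enrichment of 4.35, and the last member before it had 2.85. The one on chromosome 5 was 666 bp wide with 6.75, and the last member before it was 2901 bp wide with 12.5.

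The strongest members lay on chromosomes with much and with little coverage alike. The highest fold enrichment, 27.3, belonged to a peak of 5.64 kb inside Hmox2, which encodes heme oxygenase 2, on chromosome 16 (chr16:4737899-4743533, mm10), with 19.2 in replicate 1 and 27.5 in replicate 2. The next, at 26.2, lay on chromosome 8 (chr8:3697188-3704485), 2581 bp from Clec4g, a C-type lectin gene, with 18.7 and 22.6. Chromosome 17, with its low coverage, held a pair of neighbouring peaks of 12.9 and 14.6 kb across Ezr, which encodes the membrane-to-actin linker ezrin, and the end of its neighbour Sytl3. Their fold enrichments were 23.5 (13.7 and 27.1 in the replicates) and 22.4 (18.9 and 27.1). A replicate's value is that of its strongest overlapping peak, so both members may share a peak of replicate 2, which was not checked. Replicate 2 had the higher value at every one of the 10 strongest members. The others of the 10 lay in Adcy1, an adenylate cyclase gene on chromosome 11, at 23.3, in the pseudogene Gm6291 on chromosome 18, at 22.2, and near Gm34630 on chromosome 18, at 22.6. Further ones lay 13638 bp from the homeobox gene Dlx5 on chromosome 6, at 20.8, 3462 bp from Tarm1 on chromosome 7, at 20.7, and 34907 bp from Gm34470 on chromosome 6, at 20.4.

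On the other chromosomes the strongest member had a fold enrichment between 16.4 and 19.8. On chromosome 10 it overlapped A330032P22Rik and Gm30164, on chromosome 14 Gm10044, on chromosome 9 Pdgfd, a growth factor gene, on chromosome 1 Pcmtd1 and Gm26983, and on chromosome 15 Gm46496. On chromosomes 4, 12, 13, 2, 3, 19 and 5 it lay outside annotated genes, and the nearest were Gm18933, Gm26520, Gm20277, Gm36031, Gm23592, Gm7074 and Gm23838. These are noncoding genes or pseudogenes. The widest member, 15.9 kb on chromosome 16 (chr16:3647643-3663554), also lay outside genes, 14455 bp from the noncoding RNA gene 6720473M11Rik, with a fold enrichment of 9.69, 7.91 in replicate 1 and 10.1 in replicate 2.

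Protein-coding gene bodies were covered over 2.63% of their bases in the windows and 2.36% in the rest, with 1.90% against 1.86% in replicate 1 and 2.90% against 2.50% in replicate 2. RefSeq placed 865 protein-coding genes wholly inside the windows, 9.11 per Mb, against 8.57 per Mb in the rest. Of these, 226 had a replicated peak in the body, which is 26.1% (95% exact interval 23.2 to 29.2, counting error only). Over all autosomal protein-coding genes 31.8% had one. Replicate 1 gave 243 of the 865 and replicate 2 gave 268. Median gene length was 15.9 kb in the windows and 17.6 kb in the rest, and its part in the difference was not tested. Chromosomes differed widely. On chromosome 19, 20 of 183 genes had a peak, on chromosome 14, 4 of 80, and on chromosome 10, 17 of 34. Without chromosomes 14 and 19, a split chosen after seeing the data, 202 of 602 genes in the windows had a peak, or 33.6% (29.8 to 37.5), beside 32.1% over the autosomes without them.

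By family, 9 of 25 zinc finger genes in the windows had a peak in the body, which is 36.0%, beside 37.4% of such genes over the autosomes. These genes were taken by the start of their symbol, such as Zfp or Zscan. Zinc finger genes with other names, among them Peg3, were left out. The most covered of the 25 were Zscan5b and Zfp958, each at 20.0% of the body. Zfp444 at 18.9%, Zfp787 at 17.8% and Zfp524 at 14.4% followed. All 5 lie on chromosome 7 except Zfp958 on chromosome 8. Of 23 vomeronasal receptor genes, which encode pheromone receptors, 3 had one, beside 17.0% over the autosomes. Vmn1r65 was covered over 53.9% in replicate 1 and 88.2% in replicate 2, Vmn1r56 over 48.8% and 79.0%, and Vmn2r29 over 1.10% and 1.70%. Of 10 olfactory receptor genes 1 had a peak, Olfr1347, at 0% in replicate 1 and 22.3% in replicate 2, beside 6.52% over the autosomes. Of the predicted genes named Gm with a number, 184 of 910 had one, or 20.2%, beside 21.7%. Each share over the autosomes lay inside the 95% exact interval of the share in the windows, which was wide for the small families. It ran from 17.97 to 57.5% for zinc finger genes, from 2.78 to 33.6% for vomeronasal receptors and from 0.253 to 44.5% for olfactory receptors. These intervals cover counting error only, and most genes of each of these families in the windows lie on chromosome 7. No defensin gene lay in the windows, and 7.04% of defensin genes over the autosomes had a peak. The endoderm regulator Sox17 on chromosome 1 had no replicated peak, with 0% of its body covered in replicate 1 and 3.02% in replicate 2.

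Peg10 and Peg3 had the most covered bodies of their windows among genes of 5 kb or more. Peg10, a gene derived from a retrotransposon and expressed from the paternal allele, lies on chromosome 6 (chr6:4747306-4760517) and was covered over 30.9% in replicate 1 and 42.6% in replicate 2. Peg3, a paternally expressed zinc finger gene, lies on chromosome 7 (chr7:6703892-6730462) and was covered over 24.1% and 30.2%. A member of 9.51 kb (chr7:6723456-6732965), with a fold enrichment of 12.8, spanned the shared start of Peg3 and Usp29, a peptidase gene on the other strand. Both replicates marked both loci.

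The gene with the largest covered share in each window, among genes of 5 kb or more, was noncoding or a pseudogene on 11 chromosomes and protein-coding on 8. Of all 1903 genes in the windows, of any length, 865 were protein-coding. The share among genes of 5 kb or more was not counted, so the 2 sets are unlike. Vmn2r-ps89 on chromosome 8 was covered over 61.95% in replicate 1 and 70.7% in replicate 2, A330032P22Rik on chromosome 10 over 44.1% and 65.3%, and 1700080N15Rik on chromosome 2 over 41.4% and 63.3%. Ezr on chromosome 17 (chr17:6738131-6782780) was covered over 48.9% and 47.8% of its 44.7 kb. On 7 further chromosomes it was Gm41991, Gm35730, Gm19026, Gm41664, Rab10os, Gm36565 or Gm40508, noncoding RNA genes or pseudogenes, with between 32.6% and 45.1% covered in the replicated list. The other protein-coding genes of this set were Hmox2 at 30.4%, the opioid peptide gene Penk on chromosome 4 at 28.3%, the metalloreductase gene Steap4 on chromosome 5 at 21.6%, the kindlin gene Fermt3 on chromosome 19 at 18.4% and Gm10044 on chromosome 14 at 15.2%. On chromosome 15 it was Gm41259, at 18.9%. The annotated genes nearest to 3 Mb in the 3 most and 3 least covered windows had no peak. Over all autosomal genes 25.4% had one. In the most covered windows they were Mir101c on chromosome 9, Vmn1r-ps2 on chromosome 4 and n-TKctt9 on chromosome 3. In the least covered they were Gm41084, Gm38527 and Gm18244 on chromosomes 14, 19 and 12. All were covered over 0% in both replicates. Their lengths ran from 0.073 kb (n-TKctt9) to 10.9 kb (Gm38527), so this says little about the sequence around them.

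Few promoters of protein-coding genes were marked. Of 694 genes with a RefSeq promoter window of 300 bases in the 5 Mb, 20 or 2.88% (95% exact interval 1.77 to 4.42) were overlapped by a replicated peak, beside 2.38% of all autosomal protein-coding genes. The 20 included Hmox2, Epp13, Peg3, Usp29, Vmn2r29, Fcer2a, Clcn4, Fermt3, Tasor2, Lair1 and Vmn1r65, named after their values were seen. The marked windows had a median of 4 CpG and the unmarked ones 13. In the rest the medians were 6 and 14, so the difference is not particular to sequence next to the centromere. RefSeq gave 900 windows for the 694 genes, so a gene could have more than 1. A window of Hmox2 (chr16:4741363-4741662, plus strand) and one of Peg3 (chr7:6730370-6730669, minus strand) are printed 5′ to 3′ from RefSeq on GRCm38.p6. CpG are in capitals. Both were chosen because they lie wholly under a strong member and differ in CpG. The Hmox2 window belongs to a start inside the gene body (chr16:4726361-4766742), away from the outer start of the gene.
Hmox2: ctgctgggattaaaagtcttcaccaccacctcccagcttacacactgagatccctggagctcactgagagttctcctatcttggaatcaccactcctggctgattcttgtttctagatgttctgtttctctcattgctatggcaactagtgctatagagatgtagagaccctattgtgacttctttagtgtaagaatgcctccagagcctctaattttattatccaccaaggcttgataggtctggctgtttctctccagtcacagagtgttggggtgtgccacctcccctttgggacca
Peg3: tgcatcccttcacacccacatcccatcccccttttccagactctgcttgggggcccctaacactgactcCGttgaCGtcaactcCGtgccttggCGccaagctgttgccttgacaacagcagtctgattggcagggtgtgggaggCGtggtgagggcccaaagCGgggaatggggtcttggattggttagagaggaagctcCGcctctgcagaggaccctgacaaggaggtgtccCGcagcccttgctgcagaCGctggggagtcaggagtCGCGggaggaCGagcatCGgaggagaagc
The Hmox2 window holds 0 CpG and the Peg3 window 13. The strongest overlapping peak had a fold enrichment of 23.4 ± 5.84 (SD, n = 2) at Hmox2 and 11.6 ± 3.56 at Peg3.

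At a finer scale the median window of 100 kb was covered over 3.14% next to the centromere and 2.14% in the rest, and dense windows also made up a larger share. Of 950 windows of 100 kb next to the centromere, 54 or 5.68% were covered over at least 20%, beside 1.52% of all autosomal windows of that size. Windows with no replicated peak made up 15.6%, beside 15.1%. The highest value belonged to chromosome 13 from 3300001 to 3400000, a window with Gm8616 and Gm16505, which was covered over 31.9% in replicate 1 and 51.9% in replicate 2. Its neighbour from 3400001 to 3500000, with Gm19163 and 2810429I04Rik, had 29.3% and 49.1%. A block on chromosome 18 from 6300001 to 6400000, with Gm41664 and Gm6291, had 34.3% and 49.3%, and one on chromosome 9 from 6700001 to 6800000 had 30.99% and 45.2%. The first 100 kb of chromosome 3, which held no annotated gene, was covered over 30.6% and 34.7%.

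In mm9, where the authors called wider regions, the excess was larger and chromosome 14 changed sides. Shared regions covered 13.3% of the windows and 7.28% of the rest, a ratio of 1.83. The lists of replicates 1 and 2 alone gave 1.78 and 1.81. The ratio was above 1 on 16 of 19 chromosomes, highest on chromosome 9 at 3.69 and lowest on chromosome 17 at 0.544. On chromosome 14, shared regions covered 11.2% of the window, 15.2% in replicate 1 and 18.2% in replicate 2, against 7.63% of the rest, a ratio of 1.47. In mm10 that ratio was 0.0794. Chromosome 16 had 1.06 in mm9, with 0.974 in replicate 1 and 1.08 in replicate 2, so its replicates fell on different sides.

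Taken over the 19 chromosomes, the windows held more repeated sequence than the rest. The share of sampled positions that start a 32-mer found once in mm9 was 75.02% in the windows and 84.9% in the rest. It was 4.497% in the window of chromosome 14, 58.0% on chromosome 7 and 69.9% on chromosome 17, and between 74.0% and 88.5% on the other 16. It was higher than in the rest on chromosome 2, at 88.5% against 85.9%, and on chromosome 12, at 84.2% against 81.6%. The share of bases that start a high-copy 16-mer was 23.6% against 17.97% over all windows, but lower than in the rest on chromosomes 2, 16 and 17, with 13.005% against 18.4% on chromosome 17. On chromosome 14, then, little of the window could be told from other places in the genome by a read of that length, and how the authors handled such reads is not known here. The part of this in the low mm10 value of chromosome 14 was not tested. The unique share was measured on the mm9 window, which need not hold the same sequence as the mm10 one. The 17 members there were few and late: 3 lay between 5 and 6 Mb, 1 between 6 and 7 Mb and 13 between 7 and 8 Mb.

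The excess next to the centromere was also measured within unique sequence alone. Of unique positions 8.10% lay in shared mm9 regions in the windows and 4.07% in the rest, a ratio of 1.99, and the ratio was above 1 on 15 of 19 chromosomes, from 0.479 on chromosome 17 to 4.58 on chromosome 9. Of positions that were not unique 29.4% lay in shared regions in the windows and 25.8% in the rest, a ratio of 1.14, again above 1 on 15 chromosomes. On chromosome 14 the ratio was 1.49 in unique and 0.497 in other sequence. Most of that window is not unique, and 12.2% of its non-unique positions were marked, which lowers the ratio of 1.14. The median of the 19 chromosomes was 1.78 in unique and 1.23 in other sequence. The marked sequence itself resembled marked sequence elsewhere: 50.2% of its bases began a high-copy 16-mer, against 50.6% in shared regions of the rest, with 10.03 CpG per kb against 10.6 and a GC content of 42.0% against 42.5%. Unmarked sequence of the windows had a high-copy share of 19.4%, against 15.4% in the rest, and 7.67 CpG per kb, against 8.36.

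**Figure D4:**
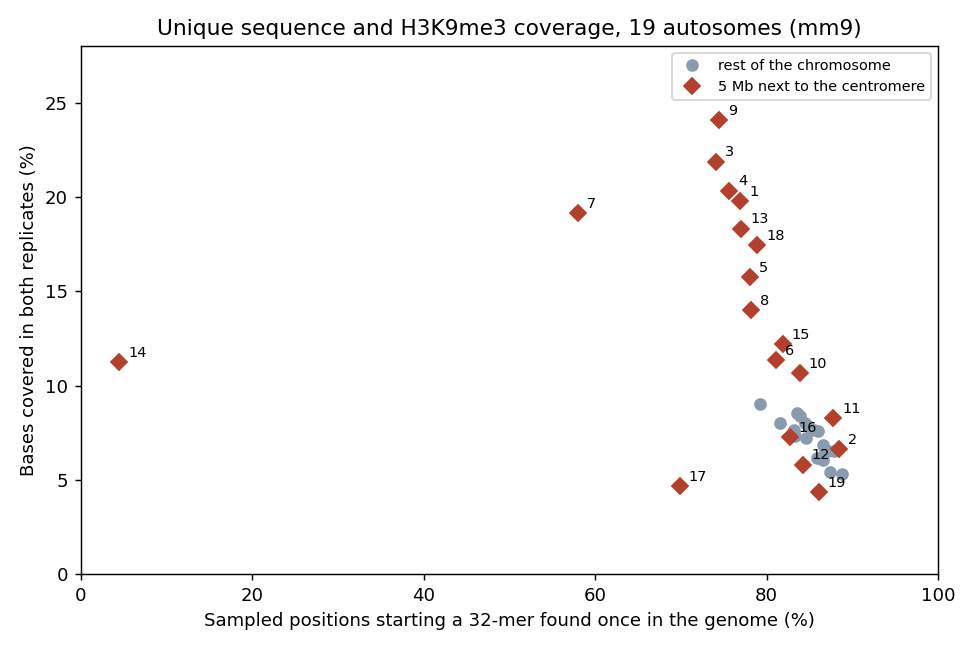
Percent of bases covered by H3K9me3 in both replicates (vertical axis) against the percent of sampled positions starting a 32-mer found once in mm9 (horizontal axis), for the 5 Mb next to the centromere (red, labelled by chromosome) and the rest (grey) of the 19 autosomes. Chromosome 14 stands apart at 4.497% unique and 11.2% covered, and chromosome 9 is highest at 24.1% covered.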

How the data were processed

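H3K9me3 ChIP-seq peak lists of 2 biological replicates were used. Per the deposited file lists, the mm10 lists (narrowPeak) were called for each replicate and on both replicates' alignments together, and the authors' replicated list was made from these lists. Replicates were thus compared by their own lists. Columns held the authors' deposited fold enrichment per peak, a linear ratio whose reference is not stated, and −log10 p and −log10 q. Fold enrichments describe and rank peaks. Replicates were also set side by side at the same positions, as mean ± SD over their own lists, although a shared scale is not stated. The mm9 lists (broadPeak) were deposited for each replicate, and a further mm9 list was not used. For caller and aligner, the sources used here give no name. No coordinates were converted between builds. Chromosome 18 was left out of the ranking of printed sequences, since no sequence from it is printed here.

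Coverage was counted on merged peaks with Python 3.11.15, numpy 2.4.6, pandas 2.3.3 and scipy 1.17.1, and k-mers with numba 0.67.0. A peak counted as overlapped from 1 bp. Genes and promoters, 250 bases before to 50 after the start, came from RefSeq GRCm38.p6. Copies of 16-mers and of 32-mers, the latter sampled every 10 bp of chromosomes 1 to 19, were counted on both strands of mm9 (NCBIM37). The interval functions were checked on simulated intervals against a count of single bases. Depth is unknown, since the lists hold no counts. With 1 group, no test was made. Intervals of shares cover counting error only.

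Named genes were the most covered gene of at least 5 kb and the gene at the strongest member of each window, those at the 10 strongest members, and the gene nearest to 3 Mb in the 3 most and 3 least covered windows. Members and lists were chosen with earlier results of these data known. Alternatives were each replicate's own list, the pooled list, stricter thresholds, other window ends, merged peaks, a trimmed rest, other overlaps and mm9 regions. The split by unique sequence and the gene count without chromosomes 14 and 19 were chosen after seeing the data.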

Additional observations from a re-analysis of the deposited data

Results flagged for a closer look

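The sex chromosomes were outside the comparisons, and both held replicated peaks in the same 3 to 8 Mb of mm10. X had 55, covering 0.541% of the window against 1.44% of the rest. Its ratio was 0.377, and the separate lists gave 0.391 and 0.397. Y had 76, covering 0.899% against 0.0305%, with 0.585% and 1.21% of the window in the replicates.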

How the results depend on the processing

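No paired analysis was possible because the series holds 1 group. The coverage ratio of 1.60 stayed above 1 under all alternatives run, and moved beyond the replicate SD only with mm9 regions, to 1.83, and on replicate 1's list. With each replicate's own list it ranged from 1.45 to 1.66, the ratio of peak density (1.495 in the replicated list) from 1.35 to 1.498, the difference in median fold enrichment (0.300) from 0.260 to 0.273, and the width ratio (1.06) from 1.087 to 1.090. Without 1 chromosome each, the coverage ratio ranged from 1.51 to 1.68. The density ratio was 1.39 with the pooled list and 1.70 for peaks of fold enrichment 4 or more, where the fold difference was 0.222 and the width ratio 1.01. The width ratio was 1.07 with the pooled list. With a window end at 5 Mb the fold difference was 0.450 and the width ratio 1.05, and at 13 Mb the width ratio was 1.03. The ratio of chromosome 11 reversed to 0.744 with a window end at 5 Mb, and that of chromosome 14 to 1.47 with mm9 regions; the cause was not tested. The share of members overlapped by both replicates, 78.4%, was 62.4% for an overlap of at least 50% of the peak, 7.73% for 90% and 77.4% with a window end at 13 Mb. Requiring 10% of the body covered lowered 226 of 865 protein-coding genes in the windows to 47. In the rest it lowered 6347 of 19796 to 1096. The high-copy share of 50.2% was 58.0% for 16-mers present at least 20 times and 38.01% for at least 200. Leaving out chromosome 14 raised the share of unique 32-mers in the windows, as added after seeing the data, from 75.02% to 78.7%. With 2 replicates and unknown depth, differences near the replicate SD are not resolved.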
